A study of Mus musculus with 6 samples.

Results

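Zinc enters the cytosol through importers of the Slc39a (ZIP) family and leaves it, for the outside or for vesicles, through exporters of the Slc30a (ZnT) family. Metallothioneins are small cysteine-rich proteins that bind most of what is left over, and MTF1 is the zinc-finger transcription factor that senses free zinc and switches on metallothionein genes and the exporter gene Slc30a1. The genes described here are 6 importers (Slc39a8, Slc39a14, Slc39a1, Slc39a4, Slc39a6 and Slc39a10), the exporter Slc30a1, the metallothioneins Mt1 and Mt2, and Mtf1. All probe sets assigned to exactly 1 of these 10 genes were taken, which gave 24 of the 45037 probe sets tested. No probe set assigned to several genes named any of them.

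RNA came from mouse embryonic stem cells of the Oct4-Gip line, which carry a reporter driven by Oct4 regulatory sequences, in medium with serum and the self-renewal cytokine LIF. Knockdown cells received an esiRNA, an enzyme-made mixture of short interfering RNA duplexes, against the long noncoding RNA Panct1. Control cells received an esiRNA against Luciferase, which has no target in mouse cells. Both groups held 3 arrays, from 60000 cells transfected with 800 ng of esiRNA and lysed 72 hours later, on the Affymetrix Mouse 430 version 2 array. The labels do not say that replicates were separate cultures, so every error given here rests on a spread between arrays that may be technical. Each SD is that spread itself. The SEs and 95% intervals come from limma, which draws each variance toward a common value over all probe sets or genes fitted. No probe set named as Panct1 was found to measure the depletion.

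Values are log2 RMA signals. The array medians lay between 6.07 and 6.09 and the lower quartiles between 4.65 and 4.70. All 8 pluripotency markers examined were bright on every array, between 10.14 and 14.63, as embryonic stem cells have them, and 4 of them fell in knockdown (Pou5f1, Zfp42, Esrrb and Utf1). Of these, Pou5f1 and Utf1 did not pass when 1 array was removed, unless that array was Panct1 knockdown replicate 3 (limma adjusted p from 0.00184 to 0.11 and from 0.0046 to 0.15 over 14 settings). Neither passed with the replicate number as a block (limma adjusted p = 0.086 and 0.115). Utf1 also did not pass with quantile normalisation repeated or with the mean of its probe sets. These calls took 1 probe set per gene. Adjusted over all probe sets, Pou5f1 was not called (limma adjusted p = 0.0571). Of the probe sets of Utf1, 0 of 3 were called, and of those of Esrrb, 1 of 3. The other 4 markers were not called. Nanog went the other way, by 0.15, with every knockdown array above every control (limma adjusted p = 0.143). It passed with trend and robust variance and with array weights (limma adjusted p from 0.0313 to 0.374 over 14 settings). Sox2, Tdgf1 and Dppa5a differed by -0.14, -0.13 and 0.00. Of 11 trophectoderm markers 9 rose and 0 fell: their mean signal was 8.67 on every knockdown array and 7.43 to 7.50 on the control arrays, with Elf5 below the lower quartile throughout. Of 12 primitive and visceral endoderm markers 2 rose and 3 fell, with mean signals of 6.15 to 6.29 in knockdown and 6.21 to 6.28 in controls, and of 7 fibroblast markers 2 rose and 0 fell, with 5.78 to 5.81 against 5.61 to 5.71. The called shares were 4 of 8 for pluripotency, 81.8% for trophectoderm, 41.7% for endoderm and 28.6% for fibroblast markers, against 24.2% of all 18193 genes (12.9% higher and 11.3% lower); the fibroblast share is near that background. The part of other cell types in the results below was not tested. In such bulk RNA, more cells of a type and more RNA per cell cannot be told apart.

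The listed genes were chosen by their role in zinc handling, with their measured differences between these same 6 arrays already known, so those differences are a description and carry no test. Of the 24 probe sets, 4 were called higher in knockdown and 0 lower by limma at an adjusted p under 0.05 over all probe sets, that is 16.7%, where 14.6% of all probe sets were called, 7.82% as higher and 6.76% as lower. These 4 were both probe sets of Slc39a8 and 1 each of Slc30a1 and Mt1. The groups did not overlap for 5 probe sets that were higher (14.2% of all probe sets) and 1 that was lower (16.2% of all). The median difference over the 24 was -0.01, against -0.02 over all probe sets. The 2 Slc39a8 differences, 2.64 and 1.31, were the largest of the set, followed by 0.41 and 0.39.

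**Figure D1:**
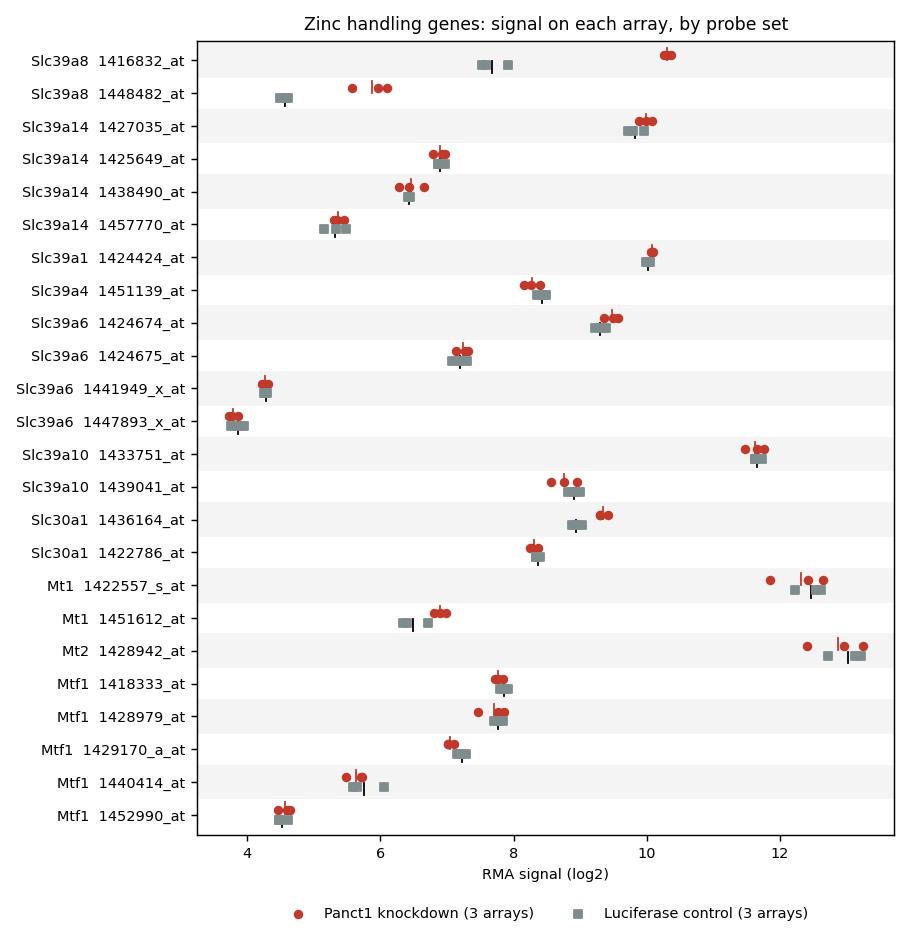
Log2 RMA signal (x axis) of the 24 probe sets of the 10 listed genes (y axis), with 1 point per array: red circles for 3 Panct1 knockdown arrays, grey squares for 3 Luciferase control arrays, vertical ticks for the group means. Only the 2 Slc39a8 probe sets show a gap between groups of nearly 1 log2 unit or more; for most others the points of both groups are mixed.

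Slc39a8 (ZIP8) is a plasma membrane importer that carries zinc and also manganese, iron and cadmium. Its brighter probe set, 1416832_at, read 10.37, 10.31 and 10.26 on the 3 knockdown arrays and 7.52, 7.58 and 7.91 on the 3 controls. The knockdown arrays lay within 0.11 of each other and far above every control. The means were 10.31 ± 0.06 and 7.67 ± 0.21 (SD, n = 3), a log2 difference of 2.64 (SE 0.10) or 6.25-fold, and in knockdown minus control this was the third highest of 18193 genes (rank 3). The dimmer probe set, 1448482_at, read 6.10, 5.96 and 5.57 in knockdown and 4.62, 4.49 and 4.59 in controls. Again no array of one group reached the other, and the difference was 1.31 (SE 0.13), or 2.48-fold. All 3 control values of this probe set lay below the lower quartile of their arrays, so its fold is measured against background, while the brighter set was above it on every array. Leaving out any 1 array kept the differences between 2.57 and 2.76 for the first probe set and between 1.20 and 1.46 for the second.

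The 5 genes whose profiles lay nearest to that of Slc39a8 over the 6 arrays, by root mean square distance between profiles centred on their own mean, were Tmcc3 (0.10), the annexin gene Anxa3 (0.15), Tagln, which encodes the actin-binding transgelin (0.15), Dsp, the desmosome protein desmoplakin (0.20), and the simple epithelial keratin gene Krt19 (0.23). With 2 groups of arrays this measure is set mainly by the size of the group difference. Krt19 is also 1 of the 9 trophectoderm markers that rose.

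RefSeq lists 2 start sites for Slc39a8 in build GRCm38.p6. The 250 bases before each are shown because this gene carries the one large difference of the set, and because the same window of other zinc-regulated genes can be set beside it. They were searched on both strands for the core of the metal response element, the site MTF1 binds, in its forms TGCACNC and TGCGCNC (opposite strand GNGTGCA and GNGCGCA). Matches are in capitals.
Slc39a8, first start, chr3:135825029-135825278, plus strand: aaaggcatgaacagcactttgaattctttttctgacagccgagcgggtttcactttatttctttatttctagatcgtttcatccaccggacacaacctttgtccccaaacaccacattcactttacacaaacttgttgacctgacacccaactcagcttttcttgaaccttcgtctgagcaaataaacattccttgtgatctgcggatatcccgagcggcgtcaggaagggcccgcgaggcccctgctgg
Slc39a8, second start, chr3:135825407-135825656, plus strand: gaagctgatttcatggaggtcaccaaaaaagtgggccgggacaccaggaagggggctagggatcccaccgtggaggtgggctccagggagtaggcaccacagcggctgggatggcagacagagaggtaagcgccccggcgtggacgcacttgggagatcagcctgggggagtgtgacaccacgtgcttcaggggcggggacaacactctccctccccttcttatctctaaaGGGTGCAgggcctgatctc
The first window held 0 cores and the second held 1, on the opposite strand, starting 19 bases before the start site. At least 1 core was present in 21.5% of 32536 distinct windows of this length over all genes, so a single match is common. A match is a run of letters and not evidence of binding.

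Slc39a14 (ZIP14), the closest relative of Slc39a8 and a carrier of the same metals, did not share its difference. Its brightest probe set, 1427035_at, read 9.98, 10.08 and 9.88 in knockdown and 9.79, 9.71 and 9.95 in controls, so the groups overlapped. The difference was 0.16 (95% interval -0.03 to 0.36). The other 3 probe sets differed by -0.01, 0.03 and 0.05, with no interval beyond -0.19 or 0.26. The upper bound of the brightest set, 0.36, lies well under the 1.31 of the smaller Slc39a8 difference.

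The remaining importers were close to level. Slc39a1 (ZIP1), a widely expressed plasma membrane importer, read 10.09, 10.08 and 10.06 in knockdown and 9.99, 10.05 and 10.01 in controls. The groups did not overlap, but the gap was small and the difference was 0.06 (95% interval -0.08 to 0.20). Slc39a4 (ZIP4), the importer of dietary zinc in the intestine, read 8.39, 8.26 and 8.15 against 8.35, 8.46 and 8.49, with knockdown replicate 1 inside the control range. Its difference was -0.17 (95% interval -0.35 to 0.02). Slc39a10 (ZIP10) and Slc39a6 (ZIP6) belong to the LIV-1 subfamily and form a complex linked to cell division and to epithelial-mesenchymal transition. Slc39a10 differed by -0.03 and -0.14 in its 2 probe sets. The brightest Slc39a6 probe set, 1424674_at, read 9.57, 9.49 and 9.35 against 9.22, 9.31 and 9.38, with the lowest knockdown array below the highest control. It differed by 0.17 (95% interval -0.02 to 0.35) and the next by 0.04. The 2 further Slc39a6 probe sets lay below the lower quartile on all 6 arrays and are not informative.

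For Slc30a1 (ZnT1), the exporter at the plasma membrane and a target of MTF1, the probe sets disagreed. Probe set 1436164_at read 9.30, 9.42 and 9.29 in knockdown and 8.88, 8.92 and 9.03 in controls, and the groups were apart. The difference was 0.39 (SE 0.07), or 1.31-fold. It was called under all 13 alternative settings run for it. Probe set 1422786_at read 8.25, 8.36 and 8.28 against 8.34, 8.34 and 8.40. These groups overlapped, with a difference of -0.06 (95% interval -0.21 to 0.09), an interval that does not reach the 0.23 at the lower end of the interval of the other probe set. Which part of the transcript each one reads is not given in the tables used here, so a change in total Slc30a1 RNA and a change in transcript form cannot be told apart.

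Mt1 and Mt2, neighbouring genes on chromosome 8, gave the largest spread between arrays of 1 group and no separation of the groups in their bright probe sets. Mt1 probe set 1422557_s_at read 11.85, 12.42 and 12.65 in knockdown and 12.54, 12.22 and 12.61 in controls. Mt2 probe set 1428942_at read 12.41, 12.96 and 13.24 in knockdown and 13.13, 12.72 and 13.21 in controls. Both put the 6 arrays in the same order, from knockdown replicate 1 at the bottom to knockdown replicate 3 at the top. The range within knockdown was 0.80 for Mt1 and 0.83 for Mt2, above the 0.53 of the next widest of the 24 probe sets. Each gene differed by -0.15 between groups, with 95% intervals of -0.59 to 0.29 for Mt1 and -0.62 to 0.32 for Mt2. Without knockdown replicate 1 both differences became 0.08. Differences inside these intervals were not detectable with this spread. The suffix _s_ marks a probe set whose probes match more than 1 transcript, so the Mt1 set may in part read related sequences.

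The second Mt1 probe set, 1451612_at, read 6.89, 6.99 and 6.81 in knockdown and 6.34, 6.40 and 6.72 in controls. Here the groups were apart, at 6.90 ± 0.09 against 6.49 ± 0.20 (SD, n = 3), and the difference was 0.41 (SE 0.11). Its arrays were ordered differently from those of the bright set. It was not called on leaving out any array except Luciferase control replicate 3, with a limma adjusted p between 0.00734 and 0.122 over 13 settings.

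**Figure D2:**
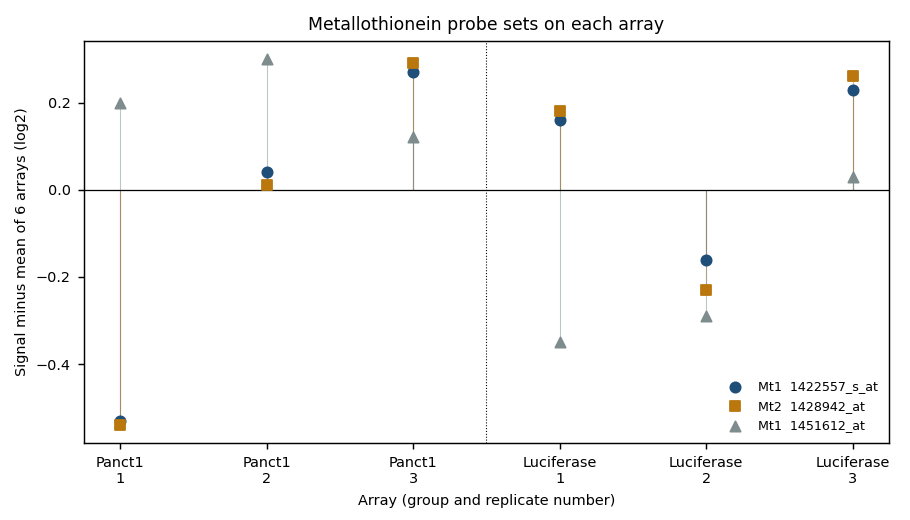
Log2 signal minus the mean of the 6 arrays (y axis) for the 3 probe sets of Mt1 and Mt2 on each array (x axis, Panct1 knockdown replicates 1 to 3, then Luciferase control replicates 1 to 3). Circles (Mt1) and squares (Mt2) nearly coincide on every array, from -0.53 and -0.54 on knockdown replicate 1 to 0.27 and 0.29 on knockdown replicate 3; the triangles of the second Mt1 probe set do not follow them.

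The windows before the starts of Mt1, Mt2 and Slc30a1 are shown as the known MTF1 targets of the set, with the same cores in capitals.
Mt1, chr8:94178839-94179088, plus strand: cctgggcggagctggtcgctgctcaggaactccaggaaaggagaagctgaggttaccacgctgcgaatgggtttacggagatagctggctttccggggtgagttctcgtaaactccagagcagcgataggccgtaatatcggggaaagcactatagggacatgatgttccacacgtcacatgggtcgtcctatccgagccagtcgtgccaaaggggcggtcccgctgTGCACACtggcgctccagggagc
Mt2, chr8:94172368-94172617, plus strand: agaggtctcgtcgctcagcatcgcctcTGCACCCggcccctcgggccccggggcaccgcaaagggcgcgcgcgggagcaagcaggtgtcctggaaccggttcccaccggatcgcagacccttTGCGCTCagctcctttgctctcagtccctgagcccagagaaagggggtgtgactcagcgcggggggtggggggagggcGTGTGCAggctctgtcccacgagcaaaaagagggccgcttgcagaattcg
Slc30a1, chr1:191906531-191906780, plus strand: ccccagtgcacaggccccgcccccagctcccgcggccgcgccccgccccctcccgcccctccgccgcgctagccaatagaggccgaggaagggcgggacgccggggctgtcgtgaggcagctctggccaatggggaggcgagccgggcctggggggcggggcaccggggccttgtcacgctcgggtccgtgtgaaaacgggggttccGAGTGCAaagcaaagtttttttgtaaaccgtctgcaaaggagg
The Mt2 window held 3 cores, a number reached by 1.28% of all windows, of which 2 were on the gene's own strand. Mt1 and Slc30a1 held 1 each. These counts hold for the start sites that RefSeq lists. Whether transcription begins there in these cells was not tested, and another start would shift the window. For Mt1 the start in use may lie farther downstream, so its count of 1 may leave out part of its promoter. Entries on 1 chromosome were left out of the search. Of the 10 genes, 7 had a window searched, and the others may still have a RefSeq entry. The windows of Slc39a1, Slc39a10 (2 start sites) and Mtf1 held 0 cores. A window without these letters says nothing of sites farther away.

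Mtf1 itself had 5 probe sets. One, at 0.04, lay below the lower quartile on all 6 arrays, and the other 4 differed by -0.17 to -0.07. The brightest, 1418333_at, read 7.76, 7.72 and 7.84 in knockdown and 7.80, 7.86 and 7.91 in controls, which overlapped. Probe set 1429170_a_at read 7.01, 7.01 and 7.11 against 7.21, 7.15 and 7.29, a small separation downward of -0.17 (95% interval -0.33 to -0.01) that was not called under any of the 13 settings. Across the listed genes the 20 probe sets not called differed by -0.17 to 0.17, and their 95% intervals together spanned -0.62 to 0.36.

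The rest of both transporter families and of the metallothioneins was tested gene by gene, taking the brightest probe set of each and adjusting over 18193 genes, of which 24.2% were called, 12.9% as higher and 11.3% as lower. Of the 19 other family genes 5 rose and 0 fell (26.3%), with a median difference of 0.08 against -0.02 over all genes. All 5 were transporters. Among the 8 other importers 1 rose, and among the 9 other exporters 4 rose. With Slc39a8 and Slc30a1 included, 2 of 14 importer genes and 5 of 10 exporter genes were called higher and 0 lower. The exporter count depends on this fit. In the fit over all probe sets, Slc30a7 (limma adjusted p = 0.0516 and 0.103 for its probe sets) and Slc30a9 (limma adjusted p = 0.0607) were not called. For Slc30a1 only 1 of 2 probe sets was called.

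Slc30a2 (ZnT2), which loads zinc into vesicles and into milk, read 8.80, 8.45 and 8.15 in knockdown and 7.07, 7.27 and 7.25 in controls. Every knockdown array lay above every control, and the gene rose 2.41-fold (log2 difference 1.27, SE 0.15; limma adjusted p = 0.000351). Slc30a4 (ZnT4), another vesicular exporter, altered in the lethal milk mouse, read 7.96, 7.98 and 7.93 against 7.22, 7.14 and 7.45. It rose 1.61-fold (limma adjusted p = 0.000544). Slc39a11 (ZIP11), an importer homologue of intracellular membranes, read 9.06, 9.09 and 8.93 against 8.28, 8.42 and 8.39, and rose 1.58-fold (limma adjusted p = 0.000259). These 3 genes were called under all 14 alternative settings.

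Slc30a7 (ZnT7), a Golgi transporter, rose by 0.28 on the log2 scale (limma adjusted p = 0.0299) and Slc30a9 (ZnT9), a mitochondrial one, by 0.31 (limma adjusted p = 0.0369). Both calls were lost without knockdown replicate 2 or 3 or without Luciferase control replicate 1 or 2, and that of Slc30a9 also without control replicate 3, with adjusted p up to 0.111 and 0.130. Mt4, a metallothionein of squamous epithelia, read 7.23, 6.79 and 6.42 against 6.22, 6.48 and 6.27 and did not pass (difference 0.49, limma adjusted p = 0.0784). It passed without knockdown replicate 3, the array that overlapped the controls. With every array kept, it also passed with array weights and with trend and robust variance. Its limma adjusted p ran from 0.0108 to 0.203 over 14 settings. Mt3, the metallothionein of brain, differed by -0.06 (95% interval -0.20 to 0.09).

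The 12 other family genes not called were Slc39a2, Slc39a3, Slc39a5, Slc39a7, Slc39a9, Slc39a12, Slc39a13, Slc30a3, Slc30a5, Slc30a6, Slc30a8 and Slc30a10, and their differences ran from -0.18 for Slc39a13 to 0.12 for Slc39a9. Slc39a7 (ZIP7), which releases zinc from the endoplasmic reticulum, differed by 0.01 (95% interval -0.14 to 0.16). Slc30a5 and Slc30a6, whose products act together in the secretory pathway, both differed by -0.01. Slc39a12 and Slc30a8 lay below the lower quartile on all 6 arrays, so little can be read from them. For Slc39a9 a probe set dimmer than the lower quartile was called higher by 0.25 among all probe sets, while the brightest was not.

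**Figure D3:**
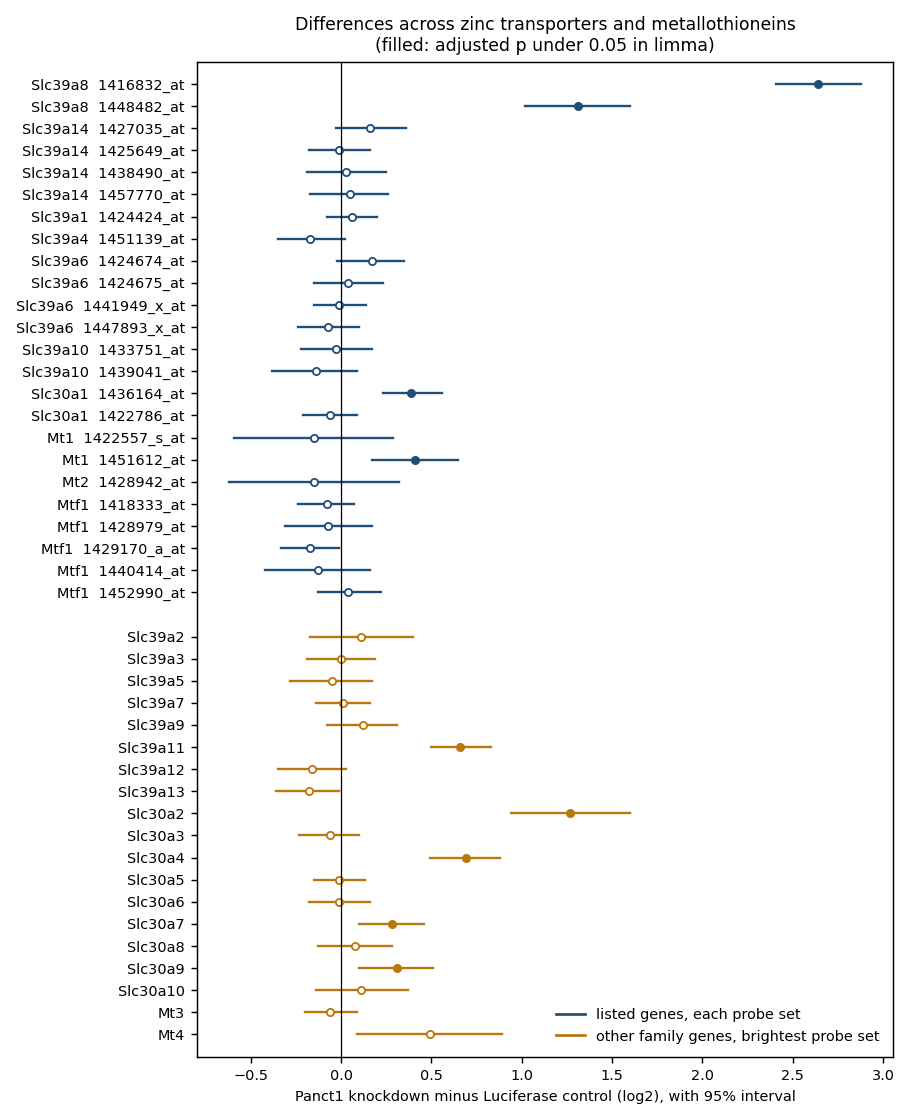
Log2 difference, Panct1 knockdown minus Luciferase control (x axis), with its 95% interval from limma, for each probe set of the 10 listed genes (blue) and for the brightest probe set of the 19 other family genes (orange). Filled points have an adjusted p under 0.05, adjusted over all probe sets for blue and over all genes for orange. They are all to the right of 0, with Slc39a8 at 2.64 and 1.31 and Slc30a2 at 1.27. Adjusted over all probe sets, Slc30a7 and Slc30a9 would not be filled.

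Genes linked to MTF1, or to agents that induce metallothioneins, moved both ways. Of 11 measured 2 rose and 4 fell (54.5% called, against 24.2% of all genes), with a median of 0.10. Csrp1, a LIM protein gene that responds to cadmium through MTF1, rose from 9.39 ± 0.18 to 10.69 ± 0.17 (SD, n = 3), or 2.46-fold (limma adjusted p = 7.80e-05), and both of its probe sets were called. Hmox1, the haem-degrading enzyme induced by metals and oxidative stress, read 10.42, 10.39 and 10.56 in knockdown and 11.20, 11.36 and 11.31 in controls and fell by 0.83 on the log2 scale (limma adjusted p = 9.19e-05). Fkbp5 and Per1, which glucocorticoids induce as they do metallothioneins, fell by 0.36 and fell by 0.38 (limma adjusted p = 0.00886 and 0.0143). Tsc22d3, another glucocorticoid-induced gene of the list, outside the naming rule and picked with its values known, rose by 0.30 (limma adjusted p = 0.0275), and 3 of its 4 probe sets were called higher, with differences from -0.12 to 0.63. That call was lost on removing any 1 of 4 arrays, which were replicates 1 and 2 of the knockdown and 2 and 3 of the controls (limma adjusted p from 0.00395 to 0.0883 over 14 settings), and with cross-hybridising probe sets left out another probe set gave 0.63 and passed.

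Since Slc39a8 and Slc39a14 also carry iron and manganese, genes that handle these metals were counted too. Of 18 measured 5 rose and 1 fell (33.3% called, against 24.2% of all genes), with a median of 0.00. Slc40a1, which encodes ferroportin, the exporter of iron from cells, read 8.91, 8.63 and 8.13 in knockdown and 6.50, 6.74 and 6.72 in controls. The groups lay far apart, and the gene rose 3.74-fold (log2 difference 1.90, SE 0.17; limma adjusted p = 0.0001); its 2 probe sets were both called, by 1.56 and 1.90. Tmem165, a Golgi protein needed for manganese supply, rose by 0.37 (limma adjusted p = 0.00265). Heph, the ferroxidase hephaestin, rose by 0.48, but below the lower quartile in both groups. Aco1, which encodes the iron regulatory protein IRP1, rose by 0.28 with 1 of 3 probe sets called, and the call was lost when probe sets that may cross-hybridise were left out (0.16, limma adjusted p = 0.181) and with the mean of its probe sets (0.16, limma adjusted p = 0.0718). Slc11a2, the importer of ferrous iron DMT1, outside the naming rule and picked with its values known, fell by 0.36 (limma adjusted p = 0.0172) in its brightest probe set, with the highest of 4 at 0.09. That call was lost without Luciferase control replicate 1 or 2 (limma adjusted p = 0.0544 and 0.0589) and with the mean of its probe sets (-0.11, limma adjusted p = 0.234). It was also lost with quantile normalisation repeated, where the gene's value was -0.08 (limma adjusted p = 0.426). The brightest probe set is chosen anew in each setting, so this value may come from another probe set. Probe set 1452078_a_at was about as bright and differed by only -0.04. Its means were 8.02 in knockdown and 8.06 in controls, against 7.86 and 8.22 for 1426441_at. Slc11a2 is the 1 gene counted above as fallen. Limma adjusted p ran from 0.0106 to 0.426 over 14 settings.

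Of 11 copper handling genes 0 rose and 2 fell (18.2% called, against 24.2% of all genes), with a median of -0.03. Ccs, the chaperone that gives copper to superoxide dismutase, read 9.66, 9.69 and 9.72 in knockdown and 10.20, 10.23 and 10.15 in controls and fell by 0.50 (SE 0.06; limma adjusted p = 0.000445). Its partner Sod1 fell by 0.20 (limma adjusted p = 0.0453), a call lost on leaving out any 1 array (adjusted p up to 0.142 over 14 settings). Atp7b, a copper-exporting ATPase, and Sco1, which passes copper to cytochrome oxidase, differed by 0.15 and 0.17 without passing.

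**Figure D4:**
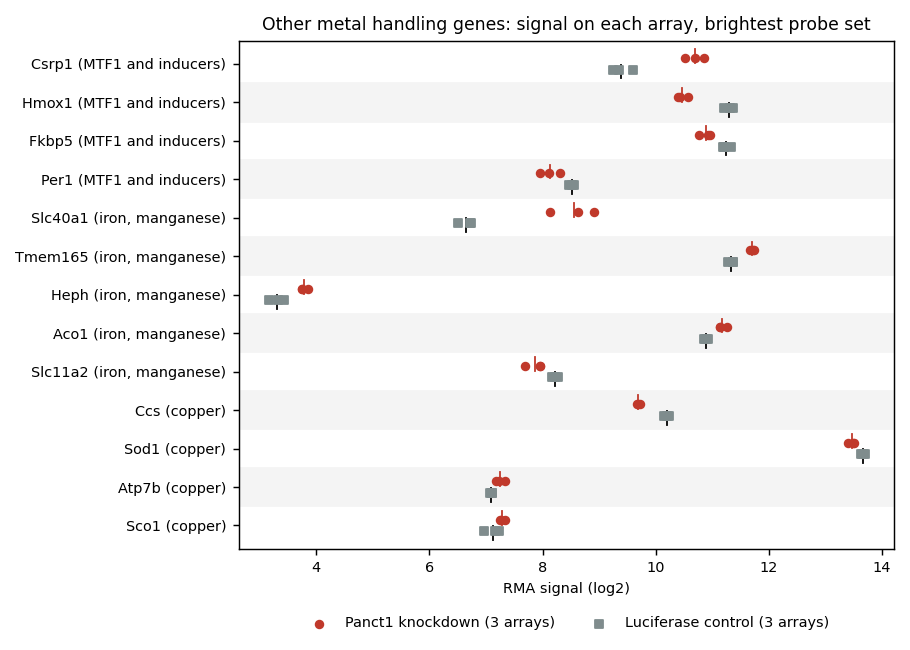
Log2 RMA signal (x axis) of the brightest probe set of 13 genes outside the zinc families (y axis), with 1 point per array. The genes are linked to MTF1 or to metallothionein inducers, or handle iron, manganese or copper. Red circles mark 3 Panct1 knockdown and grey squares 3 Luciferase control arrays, with ticks for the group means. Slc40a1 and Csrp1 show the widest gaps upward, Hmox1 and Ccs the widest downward.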

How the data were processed

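The authors deposited 1 log2 signal per probe set and array; per the submitters' processing notes, GCOS 1.4 and RMA made these values. Which arrays were normalised together is not given in the sources used here. RMA corrects background, quantile-normalises and summarises probes, which compresses differences of dim probe sets, and 3 arrays per group limit the precision. Groups and replicate numbers came from the array titles.

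Of 45101 probe sets, 64 controls were left out; 34945 of the rest had 1 symbol, 932 several and 9160 none listed. Symbols were updated through gene IDs of a RefSeq table. No filter on low signals was used, so all 24 probe sets of the listed genes were fitted. Differences were fitted with limma 3.58.1 (R 4.3.3; lmFit, eBayes, group as the only term), two-sided, with Benjamini-Hochberg adjustment over all probe sets, or over 18193 genes by their brightest probe set, and a threshold of 0.05. The script was tested on simulated data.

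The listed genes and the gene lists were chosen with earlier results of these data known. Named were every listed gene and family gene, the 4 genes with the smallest p in each other list, the 5 profiles nearest to Slc39a8 and a few stem cell markers; others are marked where they appear. Promoter windows, 250 bases before each start, came from RefSeq (GRCm38.p6). Alternatives covered the replicate block, scaling, variance model, array weights, dim or cross-hybridising probe sets, the probe set per gene and each array left out.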

Additional observations from a re-analysis of the deposited data

How the results depend on the processing

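The number of called probe sets among the listed genes stayed within 1.5 times of the main count of 4 under every setting run. Against their own main counts, so did those over all genes, genes linked to MTF1 or to metallothionein inducers, and iron and manganese genes. Over all probe sets, 4266 were called without Luciferase control replicate 1 and 4266 to 5574 on leaving out 1 array, against 6565. The count of other zinc family genes was 3 under the replicate block and 3 to 5 on leaving out 1 array, against 5; each setting with 3 lost Slc30a7 and Slc30a9. Copper genes gave 1 call with the replicate block, with quantile normalisation repeated, with the mean of probe sets and on leaving out any 1 array (1 to 1), and 4 with array weights, against 2. Arrays of the same replicate number did not deviate together (correlations of deviations from the group means -0.158, -0.302 and -0.15), so the numbers are not taken as pairs; with the block, calls among the listed genes fell to 3, the loss being the Mt1 probe set 1451612_at (limma adjusted p = 0.0695). No named value changed direction while called. Leaving out the dim part of the probe sets gave no value for the dimmer Slc39a8 set. Signal over background limits the 2 dim Slc39a6 probe sets, Slc39a12, Slc30a8, Heph and 1 Mtf1 probe set.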
